A study of Mus musculus with 6 samples.

Results

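The heat shock proteins, their DNAJ partners, the heat shock factors and the cold-inducible RNA-binding proteins were examined in RNA sequencing libraries of mouse lung. Members were the protein-coding genes whose symbol begins with Hspa, Hspb, Hspd, Hspe, Hsph or Hsp90, or with Dnaja, Dnajb or Dnajc, and a number, together with Hsf1, Hsf2, Cirbp and Rbm3. This rule, which used names and no measured value, took 76 of the 55573 genes in the deposited table. All mice were wild-type C57BL/6 animals aged 9 to 10 weeks. In the SS-31H_CS group (3 libraries), animals had smoke exposure from cigarettes and were given SS-31, a peptide antioxidant directed to mitochondria, once daily at 5 mg/kg. In the CS group (3 libraries), animals had smoke exposure without SS-31, in 75 min sessions given 2 times daily on 5 days of the week over 4 weeks. Smoke exposure was therefore shared by both groups, and no unexposed lung was compared here. The smoke schedule is stated for the CS group only. No label says whether each library is a separate mouse, so the p-values measure the spread between these libraries, which may be technical.

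Molecular chaperones bind unfolded or nascent proteins and keep them from aggregating. HSP70 proteins do this in cycles of ATP hydrolysis that are started by DNAJ proteins, which bring the client, and ended by exchange factors such as the HSP110 protein HSPH1. HSP90 acts on nearly folded clients such as kinases and steroid receptors, small heat shock proteins hold unfolded proteins without using ATP, and the HSPD1 and HSPE1 chaperonin folds proteins inside mitochondria. Heat, oxidants and other stresses that unfold proteins release the transcription factor HSF1, which induces many of the cytosolic members, whereas unfolded protein in the endoplasmic reticulum induces HSPA5 and its partners through ATF6 and XBP1. CIRBP and RBM3 are RNA-binding proteins whose transcripts increase with mild cooling, and CIRBP takes part in the temperature-dependent timing of the circadian clock.

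Promoter matches to the elements of these stress responses are shown first. They separate members whose window holds heat shock element letters from those whose window holds endoplasmic reticulum stress element letters. RefSeq promoter windows (GRCm38.p6, 250 bases before to 50 bases after the transcription start) were available for 60 of the 76 members and for 27025 mouse genes in all. Both strands were searched. A member not named with a match may lack either the match or a window. The heat shock element is built from GAA units in alternating orientation, and its version with 3 units, GAANNTTCNNGAA, was found in the windows of 4 members (6.7%), Dnajb6, Hspd1, Hspe1 and Hsph1, against 0.66% of all genes with a window. Hspd1 and Hspe1, which encode the mitochondrial chaperonin and its lid, are divergent neighbours whose windows share 285 bases (chr1:55087898-55088182). They therefore hold the same site, with 4 alternating units, read from opposite strands. The 3-unit Hsph1 site starts after the transcription start, by 15 or 36 bases depending on the RefSeq start taken. In the lines that follow, capitals mark the alternating units.
Hspe1 (chr1:55088053-55088082, plus strand): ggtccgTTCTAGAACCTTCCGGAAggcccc
Hspd1 (chr1:55088053-55088082, minus strand): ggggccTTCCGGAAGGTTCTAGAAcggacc
Dnajb6 (chr5:29735844-29735872, plus strand): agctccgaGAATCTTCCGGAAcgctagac
Hsph1 (chr5:149636280-149636308, minus strand): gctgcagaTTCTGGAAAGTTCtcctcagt

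A pair of units facing each other, GAANNTTC, is a looser match that every GAANNTTCNNGAA site also contains, as it contains TTCNNGAA. It was found in the windows of 14 members (23.3%) and of 9.04% of all genes, and the opposite arrangement, TTCNNGAA, in 6 members (10.0%) and 9.6% of all genes. The stress-inducible Hspa1a and Hspa1b, which encode nearly identical proteins and stand side by side on chromosome 17, carried identical sequence around the pair. Hspb1, the mouse HSP25 gene, held 2 pairs before its start. Capitals mark the pair.
Hspa1a (chr17:34972242-34972271, minus strand): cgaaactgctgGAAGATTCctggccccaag
Hspa1b (chr17:34959324-34959353, minus strand): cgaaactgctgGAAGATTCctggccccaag
Hspb1, first pair (chr5:135887791-135887820, plus strand): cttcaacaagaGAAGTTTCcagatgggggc
Hspb1, second pair (chr5:135887811-135887840, plus strand): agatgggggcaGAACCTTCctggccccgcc

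The endoplasmic reticulum stress element, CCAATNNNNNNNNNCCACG, was found in the windows of 3 members (5.0%), Hspa5, Hsp90b1 and Dnajc3, against 0.14% of all genes. Their products are the HSP70, the HSP90 and a DNAJ protein of the endoplasmic reticulum lumen. Hsp90b1 held the element at 2 positions, one on each strand. Capitals mark the element.
Hspa5 (chr2:34772020-34772048, plus strand): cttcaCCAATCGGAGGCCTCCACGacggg
Hsp90b1, same strand as the gene (chr10:86705633-86705661, minus strand): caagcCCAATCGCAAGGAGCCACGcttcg
Hsp90b1, other strand (chr10:86705528-86705556, minus strand): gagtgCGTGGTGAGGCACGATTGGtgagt
Dnajc3 (chr14:118937822-118937850, plus strand): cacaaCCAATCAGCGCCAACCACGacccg
A match describes letters in a window and does not show that a factor binds there.

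Total counts per library were 15611925 to 16942014 in SS-31H_CS and 17056917 to 17360052 in CS. Levels are given as CPM, counts scaled to a common library total with library sizes adjusted by TMM, and 3 counts in a library came to 0.173 to 0.192 CPM on unscaled library sizes. The third library of each group stood apart from the others. CS replicate 3 lay at 61.3 on a first principal component holding 46.4% of the variance, on which the other CS replicates lay at 14.4 and 7.19 and SS-31H_CS replicates 1, 2 and 3 at -12.5, -25.6 and -44.8. In CS replicate 3, the summed B cell markers came to 55.3 CPM, against 208 to 298 CPM in the other libraries, and the erythroid markers to 187 CPM, against 700 to 908 CPM. SS-31H_CS replicate 3 had the lowest summed neutrophil markers, with 3275, 1249 and 453 CPM in SS-31H_CS replicates 1, 2 and 3, against 2855, 2288 and 3289 CPM in CS. It also had the lowest alveolar macrophage sum, with 1131, 970 and 723 CPM in SS-31H_CS, against 1786, 1593 and 1926 CPM in CS. That sum was mostly the gene Chil3, with 794, 679 and 429 CPM in SS-31H_CS, against 1400, 1222 and 1629 CPM in CS. Of the 8 alveolar macrophage markers, 2 had a positive and 6 a negative log2 fold change, with a median of -0.18. For several members that rest on replicate 3 of a group, the log2 fold change without that library is given as well. The part of cell makeup in the member values was not tested. All 8 lung markers were expressed, and their sum of 18780 to 24230 CPM in SS-31H_CS and 21670 to 23720 CPM in CS was mostly the surfactant gene Sftpc. Of these 8, 0 passed the adjusted threshold in edgeR's test, DESeq2 called 2 and voom 0, and 3 had an unadjusted p under 0.05, the endothelial Cdh5 and Pecam1 lower and the fibroblast gene Col1a2 higher in SS-31H_CS. Their median log2 fold change was -0.30. In RNA from whole tissue, fewer cells of a type and less RNA per cell cannot be told apart.

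Of the 76 members, 69 had enough counts to be tested. The other 7, Hspb3, Hspb9, Dnajb7, Dnajb8, Dnajc5b, Dnajc5g and Dnajc22, had 0 to 21 counts in any library, and Dnajc5g had none at all. Change was called where edgeR's quasi-likelihood test gave an adjusted p under 0.05, after Benjamini-Hochberg adjustment over all 16965 genes tested. By this rule 0 of the 69 members changed, while 26 of all tested genes did (0.153%, with 0.0707% higher and 0.0825% lower). DESeq2 called 3 members, Hspa2, Hspb1 and Dnajc5, against 5.59% of all genes, and limma voom called 0. At an unadjusted p under 0.05 in edgeR's test, 4 members were higher in SS-31H_CS, against 9.93% of all genes, and 8 were lower, against 8.23%. These 12 members are 17.4% of those tested, close to the 18.2% of all genes at that threshold. The log2 fold change, SS-31H_CS over CS throughout, was positive for 32 members and negative for 37. Its median was -0.05, against 0.01 over all tested genes, and it ran from -0.79 (Hspb1) to 1.06 (Hspa2), with a median standard error of 0.146. It reached 0.5 in size for 6 members, against 19.7% of all genes, and stayed under 0.25 for 45.

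**Figure D1:**
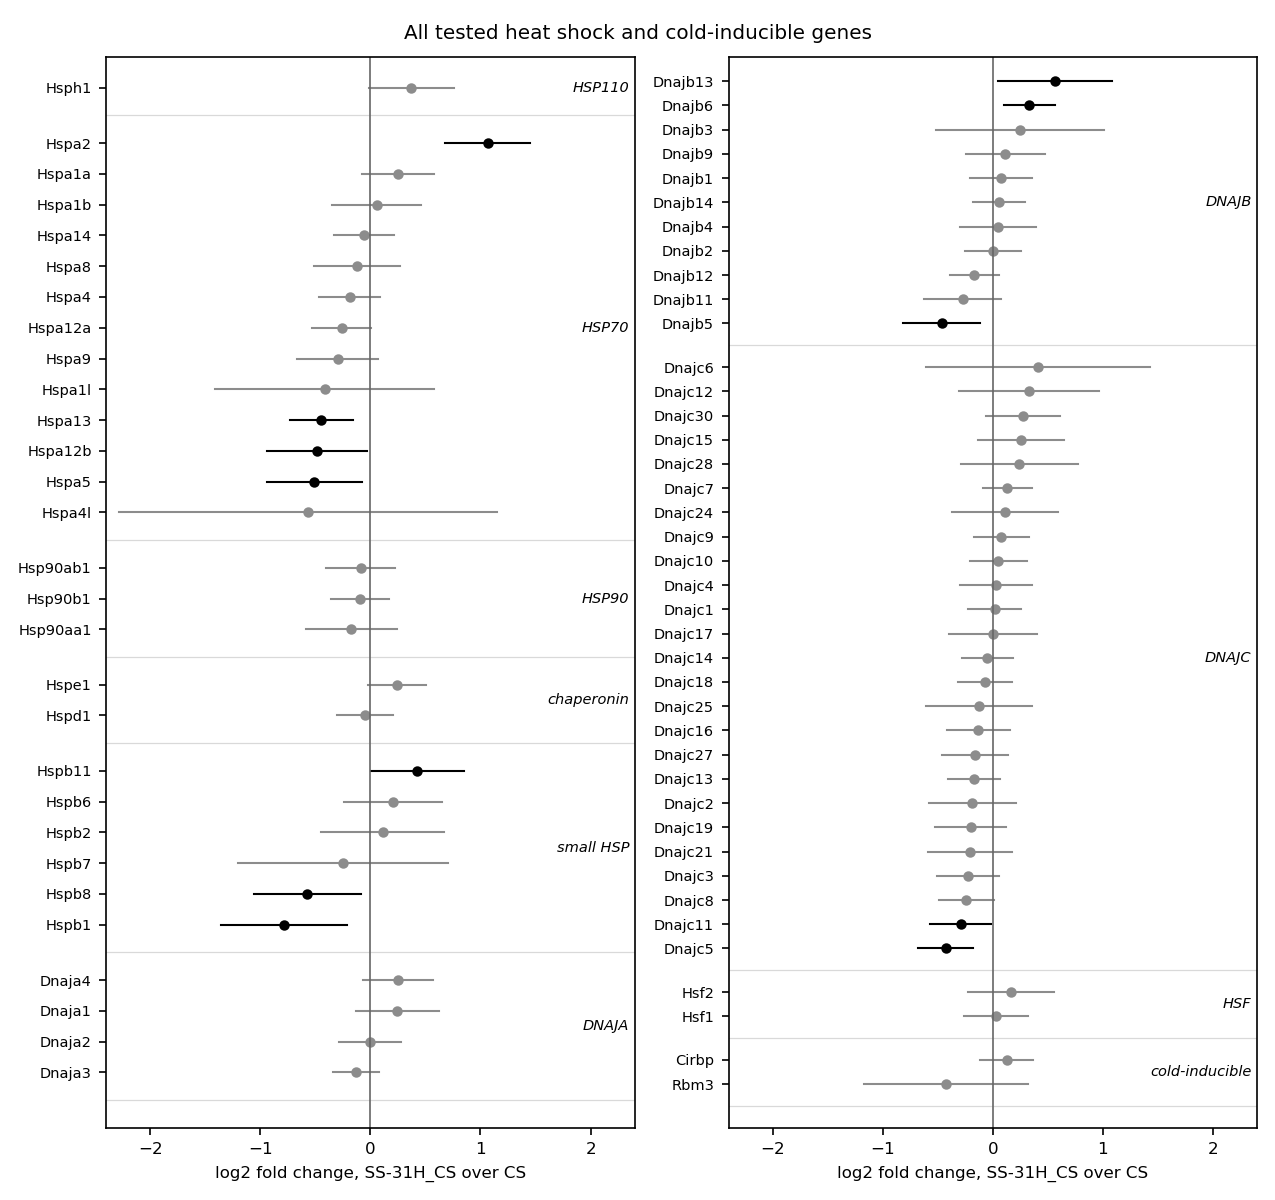
Log2 fold change, SS-31H_CS over CS, of the 69 tested members by role, as points with 95% confidence intervals as bars; black marks an unadjusted p under 0.05 in edgeR's quasi-likelihood test and grey the rest. Hspa2 at 1.06 lies furthest above 0 and Hspb1 at -0.79 furthest below, and most of the other intervals include 0.

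The 3 libraries of one group all lay above or all below the 3 of the other for 20 members (29.0%), against 26.1% of all tested genes. The 9 members wholly above in SS-31H_CS (background 13.6%) were Hspa2, Hspa1a, Hspe1, Dnaja4, Dnajb6, Dnajc7, Dnajc30, Hspb11 and Cirbp. The 11 wholly below (background 12.4%) were Hspa12a, Hspa12b, Hspa13, Hspb8, Dnaja3, Dnajb5, Dnajb12, Dnajc5, Dnajc8, Dnajc11 and Dnajc27. Hspa12a, Dnaja3, Dnaja4, Dnajb12, Dnajc7, Dnajc8, Dnajc27 and Dnajc30 are named here after their values were seen.

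Hspa2, one of 13 HSP70 genes, had the largest log2 fold change of the tested members. Hspa2 encodes an HSP70 that is abundant in testis and needed for spermatogenesis in the mouse. It had 38.4, 43.8 and 56.0 CPM in SS-31H_CS, against 19.9, 20.6 and 25.6 CPM in CS. All SS-31H_CS libraries lay above all CS libraries. Its fitted level was 2.09-fold higher in SS-31H_CS (log2 fold change 1.06, 95% confidence interval 0.68 to 1.45), with an adjusted p of 0.0683 in edgeR's quasi-likelihood test. Hspa2 was thus the 1 member within an adjusted p of 0.1, a bound that 1.76% of all genes met. DESeq2 gave it an adjusted p of 4.31e-05. It was also the 1 member called by edgeR without the low-count filter (adjusted p = 0.00292, background 2.2%) and without replicate 3 of both groups (adjusted p = 0.0387, background 0.21%). Leaving out any 1 library gave log2 fold changes of 0.90 to 1.18.

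Hspa2 lies at chr12:76404176-76406938 on the plus strand (GRCm38, GENCODE M21), and none of its 50-base windows matches another annotated transcript. Its promoter window held 1 copy of the D-box TTATGCAA, the sequence bound by the clock-controlled factors DBP, TEF and HLF. It was the 1 member with that sequence (1.7%), which 0.89% of all genes carried, and 0 members carried the variant TTATGTAA (1.11% of all genes). The E-box CACGTG, also searched, was found in 7 members (11.7%), against 8.09% of all genes, and Hspa2 was not among them. The D-box match of Hspa2 starts at -180 from the RefSeq start, inside the GENCODE bounds given above. Capitals mark the D-box, which here reads on the strand opposite to the gene.
Hspa2 (chr12:76404179-76404208, plus strand): cggggcttcatTTGCATAAcggccgcccct
The hour at which lungs were taken is not in the labels, and of 18 clock genes listed for this comparison 6 rose and 1 fell in edgeR's test, among them Dbp with 67.3, 74.3 and 101 CPM in SS-31H_CS against 6.37, 6.19 and 4.08 CPM in CS (log2 fold change 3.86, adjusted p = 0.00191). The list was chosen with earlier results of these data known, so its count of called genes is no independent result. Over all tested genes, 0.153% were called in edgeR's test. DESeq2 called 12 of the 18, against 5.59% of all genes, and voom 4. In edgeR's test 6 of the 18 were called without CS replicate 3, and 1 or 2 when any other library was left out. The clock list's part in the Hspa2 values was not tested.

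Hspa5, Hspa12b and Hspa13 were lower in SS-31H_CS at an unadjusted p under 0.05. With Hspa2 they were 30.8% of the 13 HSP70 genes, against 18.2% of all tested genes, a share resting on few genes. Hspa5 encodes BiP, the HSP70 of the endoplasmic reticulum lumen. It had 387, 494 and 400 CPM in SS-31H_CS, against 566, 490 and 769 CPM in CS. The groups overlapped, since CS replicate 2 lay below SS-31H_CS replicate 2, and CS replicate 3 was the highest library. The log2 fold change of Hspa5 was -0.51 (adjusted p = 0.222, edgeR's quasi-likelihood test) and came to -0.31 without CS replicate 3. Hspa13, whose product is a small HSP70-like protein bound to microsomes, had 24.3, 30.9 and 27.9 CPM in SS-31H_CS, against 37.4, 35.4 and 40.4 CPM in CS. The groups did not overlap, and the log2 fold change of -0.45 (adjusted p = 0.144 in edgeR's test) stayed between -0.53 and -0.37 when any library was left out. Hspa12b, a distant HSP70 relative expressed in endothelial cells, had 111, 98.7 and 65.6 CPM in SS-31H_CS, against 113, 127 and 147 CPM in CS. SS-31H_CS replicate 3 was the lowest library by far, and the Hspa12b log2 fold change of -0.49 (adjusted p = 0.249 in edgeR's test) came to -0.30 without it. The endothelial markers Cdh5 and Pecam1 were also below CS in every SS-31H_CS library, and lowest in SS-31H_CS replicate 3. Cdh5 had 840, 732 and 619 CPM in SS-31H_CS, against 1099, 1197 and 957 CPM in CS (log2 fold change -0.57, adjusted p = 0.141 in edgeR's test). Pecam1 had 773, 687 and 603 CPM in SS-31H_CS, against 889, 917 and 1137 CPM in CS (log2 fold change -0.51, adjusted p = 0.163 in edgeR's test). The part of endothelial RNA in the Hspa12b values was not tested.

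**Figure D2:**
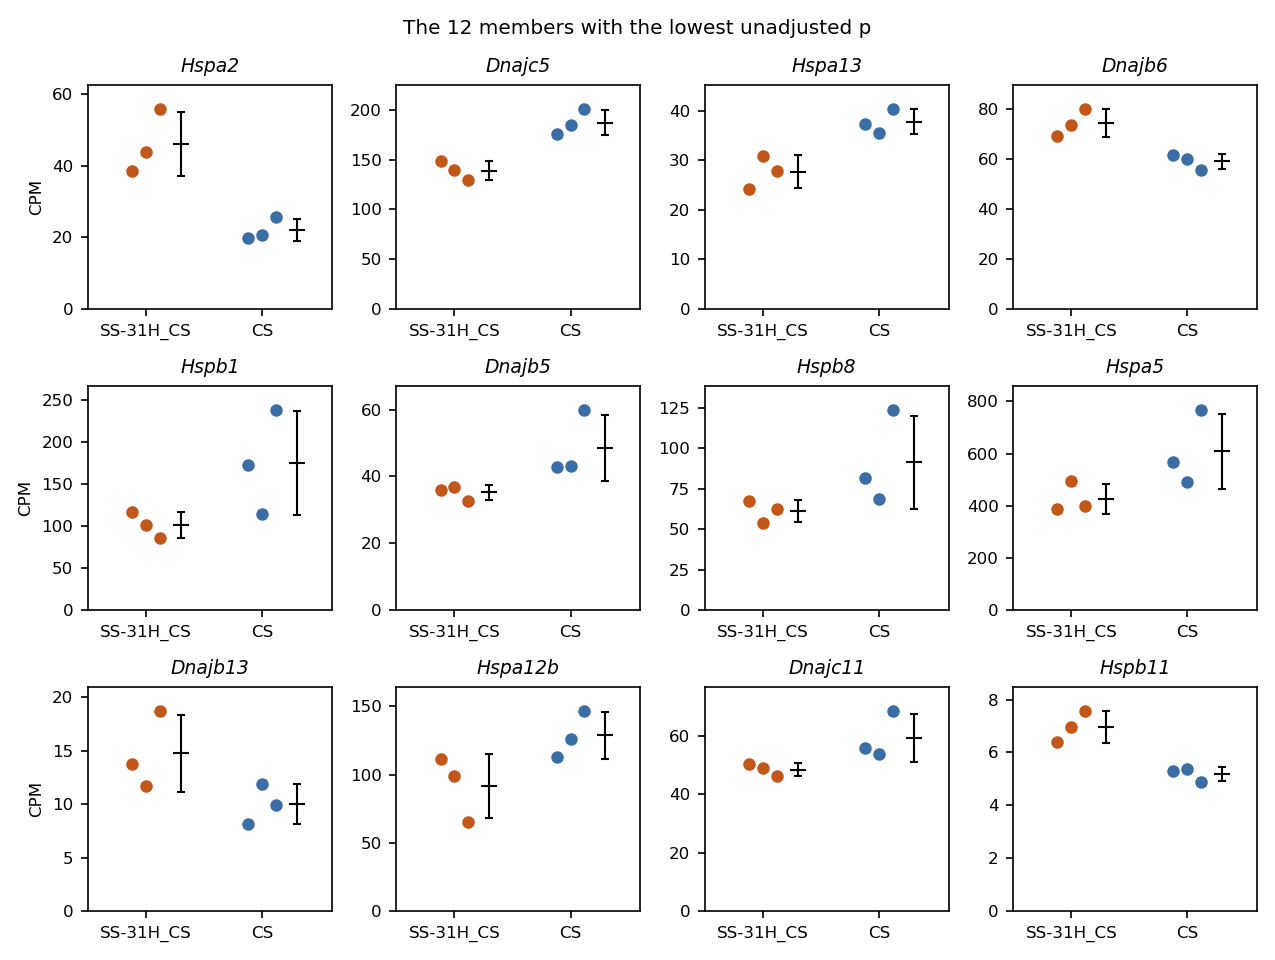
CPM of the 12 members with the lowest unadjusted p, with 1 point per library in SS-31H_CS and CS and the mean ± SD of each group (n = 3) beside the points; every axis starts at 0. Hspa2 runs from 38.4 to 56.0 CPM in SS-31H_CS and from 19.9 to 25.6 CPM in CS, while the CS points of Hspb1, Hspb8 and Hspa5 are spread widely, with CS replicate 3 at the top.

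The classical heat-inducible HSP70 genes differed little. Hspa1a had 12.2, 13.1 and 13.2 CPM in SS-31H_CS, against 10.3, 11.1 and 10.9 CPM in CS. These groups did not overlap, yet the log2 fold change of 0.25 carried an adjusted p of 0.391 in edgeR's test. Hspa1b averaged 13.2 ± 1.26 CPM in SS-31H_CS and 12.7 ± 2.16 CPM in CS (SD, n = 3 each), with overlapping groups and a log2 fold change of 0.06 that turned to -0.01 without SS-31H_CS replicate 2 and to -0.06 without CS replicate 2. Reads of these genes are hard to assign, since 66.3% of the 50-base windows of the longest Hspa1a transcript and 62.3% of those of Hspa1b also occur in other transcripts. Hspa1l, the germ-cell-linked neighbour of both, was low at 0.532 to 1.24 CPM in SS-31H_CS and 0.826 to 1.61 CPM in CS, and 71.4% of its windows were shared. Exons on the opposite strand overlap 19.0% of the Hspa1a exon and 71.9% of the Hspa1l exons.

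Hspa8, the constitutive cytosolic HSC70, had 936, 869 and 803 CPM in SS-31H_CS, against 882, 784 and 1171 CPM in CS. The groups overlapped and CS replicate 3 was the highest library. Its log2 fold change of -0.12 turned to 0.06 without that library. Hspa9, the mitochondrial HSP70 mortalin, had 134, 142 and 160 CPM in SS-31H_CS, against 161, 153 and 221 CPM in CS (log2 fold change -0.30, adjusted p = 0.366 in edgeR's test, and -0.12 without CS replicate 3). Hspa4, an exchange factor for HSP70, averaged 139 ± 16.1 CPM in SS-31H_CS and 159 ± 9.69 CPM in CS (SD, n = 3 each), with overlapping groups.

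Hsph1, the HSP110 gene whose product exchanges nucleotide on HSP70, had 56.0, 73.6 and 90.2 CPM in SS-31H_CS, against 60.3, 54.6 and 54.8 CPM in CS. SS-31H_CS replicates 2 and 3 lay above every CS library and replicate 1 below CS replicate 1, so the groups overlapped. For Hsph1 the log2 fold change was 0.37 (adjusted p = 0.289 in edgeR's test), and 0.19 without SS-31H_CS replicate 3.

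None of the 3 HSP90 genes separated the groups. Hsp90ab1, the constitutive cytosolic form, had 1263, 1141 and 1282 CPM in SS-31H_CS, against 1473, 1184 and 1267 CPM in CS. Hsp90aa1, the heat-inducible cytosolic form, had 236, 257 and 320 CPM in SS-31H_CS, against 297, 248 and 372 CPM in CS. Hsp90b1, which encodes GRP94 of the endoplasmic reticulum lumen, averaged 505 ± 37.8 CPM in SS-31H_CS and 538 ± 20.3 CPM in CS (SD, n = 3 each). Their log2 fold changes were small beside the spread between libraries, with values of -0.09, -0.17 and -0.09 in that order. That of Hsp90aa1 came to -0.01 without CS replicate 3.

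The mitochondrial chaperonin genes share the promoter site printed above. Hspe1, the lid, had 54.6, 55.2 and 62.6 CPM in SS-31H_CS, against 49.9, 43.3 and 52.5 CPM in CS. Its groups did not overlap, and its log2 fold change was 0.24 (adjusted p = 0.307 in edgeR's test). Hspd1, the chamber, averaged 100 ± 9.10 CPM in SS-31H_CS and 104 ± 6.22 CPM in CS (SD, n = 3 each), with overlapping groups and a log2 fold change of -0.05 that was 0.01 with library size alone. The difference between the log2 fold changes of Hspe1 and Hspd1 was not tested. Exons of Hspd1 and Hspe1 overlap on opposite strands over 4.2% and 7.6% of their lengths, and 44.8% of the Hspd1 windows also occur in other transcripts.

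Of the 8 small heat shock protein genes, 6 were tested, and Hspb1 and Hspb8 were lower in SS-31H_CS at an unadjusted p under 0.05. With Hspb11, which was higher, they were 50% of the 6, against 18.2% of all tested genes, a share resting on few genes. Hspb1 had 117, 101 and 85.7 CPM in SS-31H_CS, against 172, 115 and 238 CPM in CS. CS replicate 2 lay below SS-31H_CS replicate 1, so the groups overlapped, and the CS libraries differed widely among themselves. The log2 fold change of Hspb1 was -0.79 (95% confidence interval -1.36 to -0.21, adjusted p = 0.175 in edgeR's quasi-likelihood test). It came to -0.50 without CS replicate 3. DESeq2 gave Hspb1 an adjusted p of 0.0369. A pseudogene, Hsp25-ps1, shares 51.6% of the 50-base windows of the Hspb1 transcript. Reads from such windows can be hard to assign, and how far this bears on the Hspb1 counts was not tested.

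Hspb8 encodes a small heat shock protein that works with BAG3 in the removal of damaged muscle proteins. It had 67.3, 54.0 and 62.5 CPM in SS-31H_CS, against 81.3, 68.8 and 124 CPM in CS. The groups did not overlap, by a margin of 68.8 against 67.3 CPM. The Hspb8 log2 fold change of -0.58 (adjusted p = 0.220 in edgeR's test) came to -0.30 without CS replicate 3. Hspb7, a heart and muscle form named here after its values were seen, had 26.9, 12.7 and 13.9 CPM in SS-31H_CS, against 19.4, 11.1 and 33.2 CPM in CS. Its log2 fold change of -0.25 turned to 0.22 without CS replicate 3. Summed CPM of 10 heart muscle markers was 934, 416 and 358 in SS-31H_CS, against 714, 239 and 370 in CS, with the highest value of each group in replicate 1. The part of muscle RNA in the small heat shock protein values was not tested.

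Hspb11 is a member by name and encodes IFT25, a component of the intraflagellar transport machinery of cilia. It had 6.38, 6.97 and 7.59 CPM in SS-31H_CS, against 5.31, 5.39 and 4.88 CPM in CS. Every SS-31H_CS library exceeded every CS library, with a log2 fold change of 0.43 and an adjusted p of 0.270 in edgeR's test.

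**Figure D3:**
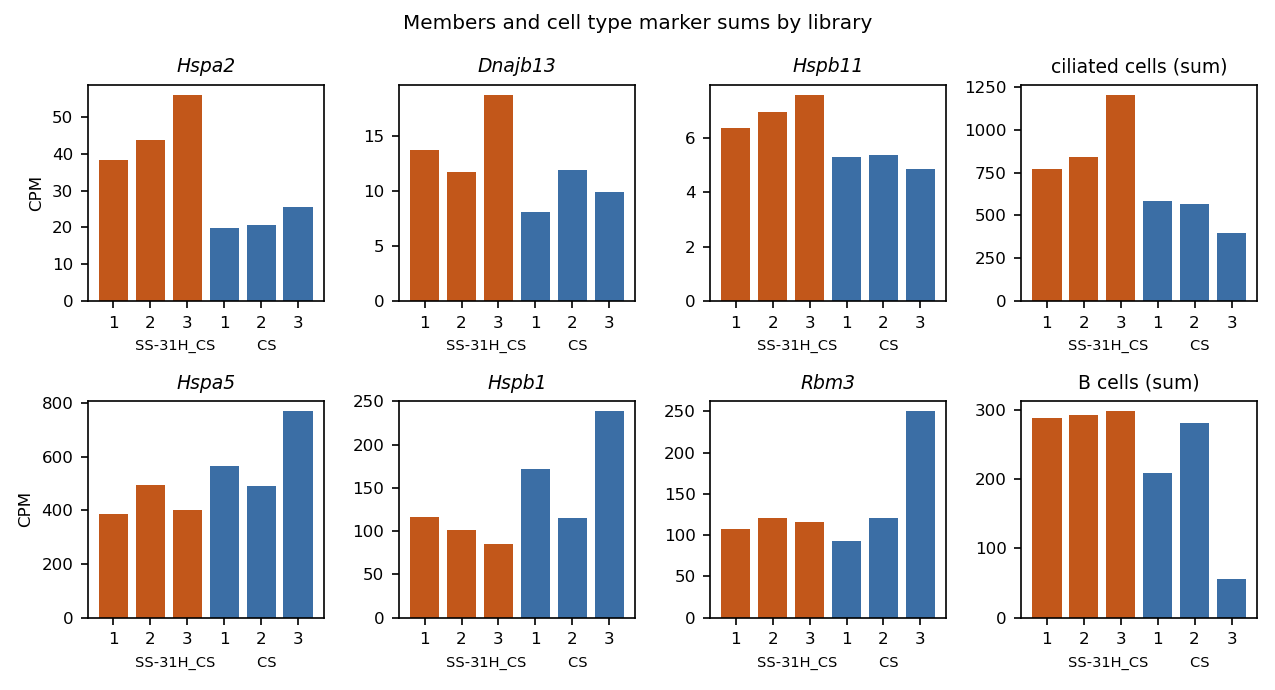
CPM by library (bars from 0) of Hspa2, Dnajb13, Hspb11, Hspa5, Hspb1 and Rbm3, and summed CPM of 12 ciliated cell markers and of 6 B cell markers. The ciliated sum is 772 to 1203 in SS-31H_CS and 400 to 584 in CS, and CS replicate 3 holds the highest Hspa5, Hspb1 and Rbm3 and the lowest B cell sum, 55.3.

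Dnajb13 belongs with Hspb11 by role, since its product is a DNAJ protein of the radial spokes of motile cilia and sperm flagella. It had 13.8, 11.7 and 18.8 CPM in SS-31H_CS, against 8.14, 11.9 and 9.94 CPM in CS. SS-31H_CS replicate 2 lay just under CS replicate 2, so the groups overlapped. The Dnajb13 log2 fold change of 0.56 (adjusted p = 0.249 in edgeR's test) came to 0.35 without SS-31H_CS replicate 3. Over 12 ciliated cell markers, all 12 had a positive log2 fold change with an unadjusted p under 0.05, 0 passed the adjusted threshold in edgeR's test, DESeq2 called 10 and voom 0, and the median was 1.11. Their summed level was 772, 841 and 1203 CPM in SS-31H_CS, against 584, 566 and 400 CPM in CS, and none of them was at 0 in any library. The part of ciliated cell RNA in the values of Hspa2, Dnajb13 and Hspb11 was not tested. Exons of Ucp2 on the opposite strand overlap 11.2% of the Dnajb13 exons, and whether counting used strand is not given in the sources used here.

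The DNAJ proteins, which deliver clients to HSP70 and set off its ATPase, make up 45 of the 76 members, and 40 of them were tested. Dnajb6 and Dnajb13 were higher and Dnajb5, Dnajc5 and Dnajc11 lower in SS-31H_CS at an unadjusted p under 0.05. They were 27.3% of the 11 tested DNAJB and 8% of the 25 tested DNAJC genes, against 18.2% of all tested genes. Of the 4 DNAJA genes, 0 passed that threshold. Dnajc5 encodes the cysteine string protein, which sits on secretory and synaptic vesicles. It had 149, 139 and 129 CPM in SS-31H_CS, against 176, 185 and 201 CPM in CS. The groups did not overlap, and the spread within each was small. The log2 fold change of -0.43 (adjusted p = 0.132 in edgeR's test) stayed between -0.49 and -0.38 when any library was left out, and DESeq2 gave Dnajc5 an adjusted p of 0.0160.

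Dnajb6, whose product holds back the aggregation of polyglutamine proteins, carries the 3-unit heat shock element printed above. It had 69.2, 73.5 and 80.2 CPM in SS-31H_CS, against 61.4, 59.8 and 55.8 CPM in CS. Again the groups did not overlap. Its log2 fold change was 0.33 (adjusted p = 0.170 in edgeR's test), and 0.27 to 0.37 when any library was left out. Other annotated transcripts share 42.8% of the Dnajb6 windows.

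Dnajb5, a relative of the inducible HSP40, had 36.1, 37.0 and 32.6 CPM in SS-31H_CS, against 42.7, 43.1 and 60.0 CPM in CS. The groups did not overlap, and the log2 fold change of -0.47 came to -0.29 without CS replicate 3. Dnajc11, a DNAJ protein of mitochondrial cristae, had 50.4, 48.9 and 46.3 CPM in SS-31H_CS, against 55.8, 53.7 and 68.7 CPM in CS. Its groups did not overlap either, and the log2 fold change of -0.29 came to -0.18 without CS replicate 3.

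Dnajb1, the HSP40 that HSF1 induces with Hspa1a, averaged 53.8 ± 5.83 CPM in SS-31H_CS and 51.1 ± 4.88 CPM in CS (SD, n = 3 each). Dnaja1, a farnesylated partner of HSC70, averaged 119 ± 23.4 CPM in SS-31H_CS and 101 ± 13.3 CPM in CS (SD, n = 3 each). Dnajb9, an endoplasmic reticulum DNAJ protein that restrains the stress sensor IRE1, averaged 50.4 ± 7.78 CPM in SS-31H_CS and 46.6 ± 7.40 CPM in CS (SD, n = 3 each). The groups overlapped for all 3 genes, with log2 fold changes of 0.08, 0.24 and 0.11 in that order. That of Dnaja1 came to 0.08 without SS-31H_CS replicate 3. The value of Dnajb1 turned to -0.01 without SS-31H_CS replicate 3 and likewise without CS replicate 1, and that of Dnajb9 to -0.02 without SS-31H_CS replicate 2 and -0.01 without CS replicate 2.

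**Figure D4:**
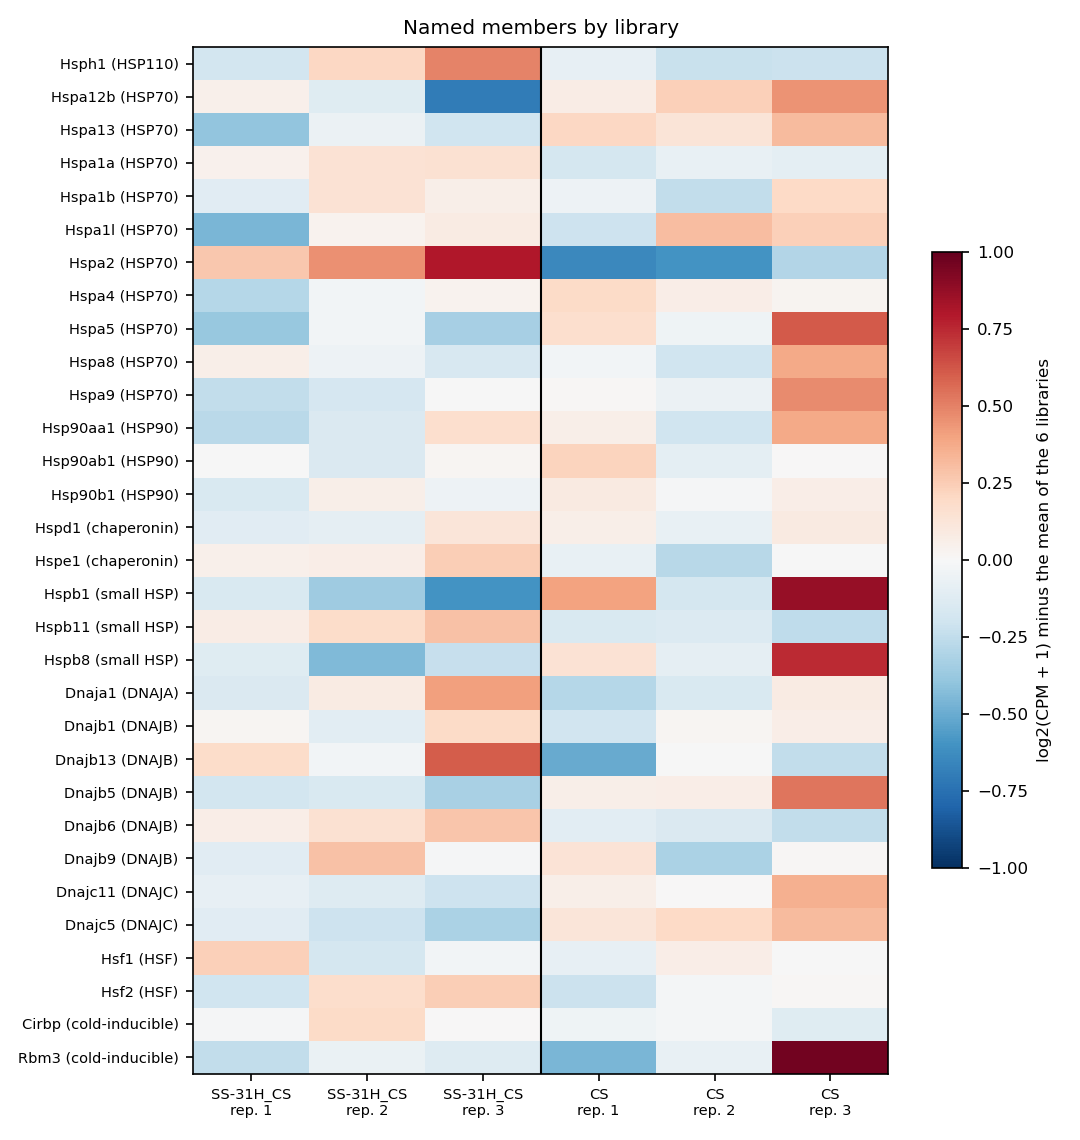
Log2(CPM + 1) of 31 members in each library minus the mean of the 6 libraries, as colour, with SS-31H_CS replicates on the left of the line and CS replicates on the right. Hspa2 is red in all SS-31H_CS columns and blue in all CS columns, and CS replicate 3 has the darkest reds for Rbm3, Hspb1, Hspb8, Hspa5 and Dnajb5.

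Hsf1 encodes the master factor of the heat shock response, which is controlled mainly through the protein. It had 76.0, 56.9 and 63.0 CPM in SS-31H_CS, against 60.7, 67.3 and 64.2 CPM in CS. The groups overlapped, and the log2 fold change of 0.03 turned to -0.10 without SS-31H_CS replicate 1 and to -0.02 without CS replicate 1. Hsf2, a partner of HSF1, averaged 16.1 ± 2.69 CPM in SS-31H_CS and 14.3 ± 1.29 CPM in CS (SD, n = 3 each), with overlapping groups.

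The cold-inducible genes gave log2 fold changes of opposite sign, that of Rbm3 resting on CS replicate 3. Cirbp had 120, 138 and 121 CPM in SS-31H_CS, against 117, 119 and 111 CPM in CS. The groups did not overlap, by a margin of 120 against 119 CPM, and the log2 fold change was 0.13 (adjusted p = 0.551 in edgeR's test). Rbm3 had 107, 121 and 117 CPM in SS-31H_CS, against 92.5, 121 and 250 CPM in CS. CS replicate 3 held more than any other library, and CS replicate 1 held the least. The Rbm3 log2 fold change of -0.43 (adjusted p = 0.510 in edgeR's test) turned to 0.10 without CS replicate 3. Of 15 listed splicing kinases and SR proteins linked to body temperature, 0 passed the adjusted threshold in edgeR's test and likewise by DESeq2 and voom, and 3 were higher at an unadjusted p under 0.05, with a median log2 fold change of 0.16. The SR-like factor Tra2a had 127 to 167 CPM in SS-31H_CS and 104 to 117 CPM in CS, and the SR protein gene Srsf7 averaged 123 ± 13.1 CPM in SS-31H_CS and 95.4 ± 7.45 CPM in CS (SD, n = 3 each). Their log2 fold changes were 0.42 and 0.37.

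Without CS replicate 3, 3 members were higher and 4 lower at an unadjusted p under 0.05 in edgeR's test, against 13.8% of all genes in either direction. The median log2 fold change of the members was then 0.01, against 0.008 over all tested genes. The counts also moved without SS-31H_CS replicate 3, to 2 higher and 4 lower (11.9% of all genes in either direction), and without CS replicate 1, to 2 higher and 9 lower (14.9%).

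Genes that work with the members were taken from fixed lists, which were chosen with earlier results of these data known. Limma voom called 0 genes of the chaperone, folding and protein quality control lists. Of 31 chaperone cofactors, 0 passed the adjusted threshold in edgeR's test, while 1 was higher and 5 were lower at an unadjusted p under 0.05, with a median log2 fold change of 0.02, and DESeq2 called 2. Fkbp5, an HSP90 cofactor that glucocorticoids induce, had 39.1, 38.9 and 31.3 CPM in SS-31H_CS, against 80.7, 114 and 344 CPM in CS. Its groups did not overlap and the log2 fold change was -2.30 (adjusted p = 0.0994 in edgeR's test). Without CS replicate 3 it was -1.42, with an adjusted p of 0.0474 in edgeR's test. This was the lowest adjusted p with 1 library left out, and the highest was 0.293. For Fkbp5, DESeq2 gave an adjusted p of 0.0105 and voom 0.133. Hyou1, the large HSP70 relative that exchanges nucleotide on BiP, had 114, 130 and 121 CPM in SS-31H_CS, against 174, 144 and 192 CPM in CS. Its groups did not overlap either, with a log2 fold change of -0.48 (adjusted p = 0.140 in edgeR's test). For Hyou1, DESeq2 gave an adjusted p of 0.0304 and voom 0.160.

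Of 20 further genes of endoplasmic reticulum folding and the unfolded protein response, 0 passed the adjusted threshold, 1 was higher and 3 were lower at an unadjusted p under 0.05 in edgeR's test, and DESeq2 called 1. The median log2 fold change was -0.19, and -0.04 without CS replicate 3. Herpud1, which acts in the degradation of endoplasmic reticulum proteins, had 239, 237 and 267 CPM in SS-31H_CS, against 195, 170 and 173 CPM in CS, with groups that did not overlap (log2 fold change 0.46, adjusted p = 0.119 in edgeR's test). For Herpud1, DESeq2 gave an adjusted p of 0.00991 and voom 0.133. Ern1, the stress sensor IRE1, averaged 49.6 ± 7.42 CPM in SS-31H_CS and 63.7 ± 1.89 CPM in CS (SD, n = 3 each). Of the 20 genes, 3 had a positive log2 fold change, Herpud1 among them, and 17 a negative one, Ern1 among them. The groups did not overlap for 7 genes (35%, against 26.1% of all tested genes), with 6 lower in SS-31H_CS and Herpud1 alone higher.

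Of 13 tested genes of the cytosolic chaperonin and prefoldin, 0 passed the adjusted threshold and 1, Pfdn5, was higher at an unadjusted p under 0.05 (log2 fold change 0.31), with a list median of -0.09 and Cct3 at -0.31. DESeq2 called 0 of these and 0 of the mitochondrial list. Of 11 genes of mitochondrial protein quality control, 0 passed either threshold in edgeR's test, with a median of -0.09, and the proteases Pitrm1 and Clpp had log2 fold changes of -0.22 and -0.25. Among further small heat shock and heat shock factor genes, 3 of 6 were tested. The lens crystallin Cryaa had 3.13, 2.51 and 4.23 CPM in SS-31H_CS, against 1.06, 1.66 and 1.30 CPM in CS, and Hsf4 averaged 29.8 ± 0.968 CPM in SS-31H_CS and 23.0 ± 3.80 CPM in CS (SD, n = 3 each). Their log2 fold changes were 1.29 and 0.37, in that order. Neither passed the adjusted threshold in edgeR's test, and DESeq2 called 1 of the 3, Cryaa (adjusted p = 0.0306).

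On the deposited FPKM, which divide by gene length, 34 members averaged at least 10 FPKM. The order of levels is uncertain where sequence is shared with other transcripts, which held for 52.7% of the 50-base windows of Hspa8, 58.5% of those of Hsp90aa1 and 51.6% of those of Hspb1, against 4.5% for Hsp90ab1, 10.0% for Hsp90b1 and 0.0% for Hspa5. Hsp90ab1 stood highest at 417 ± 15.9 FPKM in SS-31H_CS and 427 ± 48.9 FPKM in CS (SD, n = 3 each). Hspa8 followed with 206 ± 16.2 FPKM in SS-31H_CS and 215 ± 39.1 FPKM in CS. The next 3, Hspb1, Hsp90b1 and Hspa5, averaged 100, 128 and 103 FPKM in SS-31H_CS, against 165, 131 and 140 FPKM in CS. Their order in CS lay within the SDs. The heat-inducible Hspa1a, with 66.3% of its windows shared, was at 4.40 ± 0.270 FPKM in SS-31H_CS and 3.57 ± 0.180 FPKM in CS. Hspa2 averaged 17.7 ± 3.36 FPKM in SS-31H_CS and 8.14 ± 0.938 FPKM in CS. Of the cold-inducible pair, Cirbp averaged 49.4 ± 5.33 FPKM in SS-31H_CS and 43.5 ± 2.76 FPKM in CS, and Rbm3 24.9 ± 2.07 FPKM in SS-31H_CS and 31.9 ± 16.4 FPKM in CS.

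**Figure D5:**
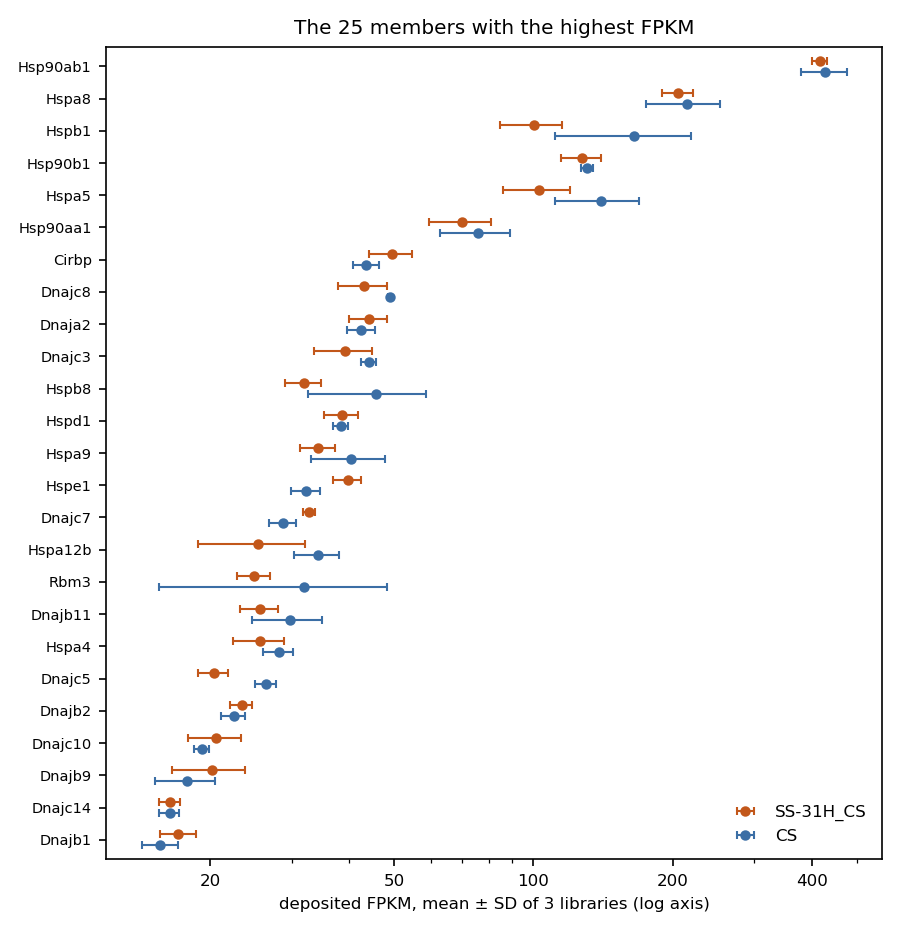
Deposited FPKM (log axis) of the 25 members with the highest mean, as mean ± SD of 3 libraries in SS-31H_CS (upper point of each pair) and CS (lower point). Hsp90ab1 and Hspa8 lie above all others in both groups, and the bars of most pairs overlap.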

How the data were processed

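RNA sequencing of mouse lung was compared between SS-31H_CS and CS, with 3 libraries each. The files deposited by the authors hold raw counts by Ensembl gene, and FPKM of those libraries in a second table. Per the submitters' processing notes, cutadapt 1.9.1, HISAT2 2.0.1, HTSeq 0.6.1 and GRCm38 were used. The annotation release and strand setting are not given in the sources used here. Symbols came from GENCODE M21 (55394 genes matched, 179 did not). Differences were tested on the deposited counts with edgeR 4.0.16 (quasi-likelihood, TMM, two-sided, low-count filter with minimum count 10 and minimum total 15) and Benjamini-Hochberg adjustment over all tested genes. Fold changes are log2, computed here from the deposited counts. Named members are the 12 with the lowest p and 22 fixed ones. Up to 2 genes with the lowest p were named per pathway list. Members and lists were chosen with earlier results of these data known. Alternatives were RLE or library size scaling, other filters, DESeq2 1.42.0, limma 3.58.1 on counts (voom) and on log2(FPKM + 1) or log2(FPKM + 0.1), a replicate block, and fits without single libraries, in which the smaller group is taken to vary as much as the larger. Shared sequence was measured as 50-base windows of each member's longest transcript found in other transcripts of GENCODE M21. Promoter windows came from RefSeq GRCm38.p6.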

Additional observations from a re-analysis of the deposited data

How the results depend on the processing

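The count of changed genes, 26 over all tested genes, was 12 with library size alone, 648 without the low-count filter, 948 with DESeq2, 6 with voom, 6 on log2(FPKM + 1), 5 on log2(FPKM + 0.1), 4 on log2(FPKM + 1) without a filter, 299 at an adjusted p under 0.1, and 1 to 15 with 1 library left out. The count of changed members, 0, was 3 with DESeq2 and 1 without the low-count filter, at an adjusted p under 0.1, and without replicate 3 of both groups; it stayed at 0 with each 1 library left out in turn. Members higher at an unadjusted p under 0.05 (4) were 7 with library size alone, 7 on log2(FPKM + 1) and on log2(FPKM + 0.1), 8 on log2(FPKM + 1) without a filter, 1 without replicate 3 of both groups, and 2 to 5 with 1 library left out. Members lower (8) were 4 on log2(FPKM + 1) without a filter, 2 without replicate 3 of both groups, and 4 to 9 with 1 library left out. The share of all genes at that threshold was counted only in the fits whose shares are given above. For the other settings these counts are therefore no result about the members. The members' median log2 fold change (-0.049) was 0.006 with library size alone, 0.027 on log2(FPKM + 1), 0.028 on log2(FPKM + 0.1), and -0.095 to 0.010 with 1 library left out. Over all tested genes the median (0.011) was 0.066 with library size alone, 0.044 on log2(FPKM + 1) and 0.055 on log2(FPKM + 0.1). The members' median thus stayed below that of all tested genes in these scaling and FPKM settings. The cause of these shifts was not tested. Hspa8 and Rbm3 turned to 0.11 and 0.10 without replicate 3 of both groups, and Hspd1 to 0.01 with library size alone and 0.00 on the 3 FPKM settings. With 1 library left out, log2 fold changes ran from -0.06 to 0.19 for Hspa1b, -0.24 to 0.06 for Hspa8, -0.01 to 0.15 for Dnajb1, -0.02 to 0.21 for Dnajb9, -0.10 to 0.12 for Hsf1 and -0.70 to 0.10 for Rbm3. Library size alone turned the sign of 4 members and RLE scaling of 1, all within 0.05 of 0. Of 808 comparisons over 45 named genes, 772 kept direction and side of the threshold, 14 passed it, 6 lost it and 16 turned sign.

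Equal replicate numbers gave no sign of pairing: deviations from the group means correlated at 0.00721, 0.0363 and -0.0571. Libraries of unequal number correlated at -0.103 to 0.0712. With 3 libraries a group, this check cannot exclude pairing. With the replicate number as a block, 0 genes were called in edgeR's test, clock genes included, and 2 members were higher and 6 lower at an unadjusted p under 0.05. The share of all genes at that threshold was not counted in this fit.

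With 3 libraries a group, a median standard error of 0.146 on the log2 scale leaves most member differences within error, and members with shared sequence or few counts are less certain.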
